A study of Mus musculus with 7 samples.

Results

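The 10 genes described here belong to nitric oxide signalling and of the cycle that remakes its substrate arginine, and were measured in MN9D cells: Nos1, Ass1, Asl, Arg2, Ddah1, Ddah2, Prkg1, Prkg2, Adh5 and Nos1ap. Every probe set that the platform's annotation gives to any of these 10 genes was taken, including 1 that carries Ass1 together with the pseudogene Gm5424. This gave 11 probe sets of 8 genes among the 22626 tested on the array. Ddah1 and Nos1ap were not analysed here, as no probe set in the annotation used carries either symbol. MN9D is a dopamine-producing mouse cell line, a hybrid of cells from the embryonic midbrain and a neuroblastoma. One group of 3 arrays came from MN9D cells with an empty vector and the other, of 4 arrays, from MN9D cells labelled as overexpressing the alpha- and beta-chains of mouse hemoglobin. The design text counts a further control array that failed the submitters' quality assessment, which was not analysed here. Both groups thus share the cell line and, as far as the labels go, a vector. The labels give neither the vector's promoter nor whether a group is 1 clone or a pool, and they do not say that replicates came from separate cultures, so the errors below cover only the spread between these arrays. Per the design text, the study asked about the biological effects of globin in these cells.

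Nitric oxide synthase makes nitric oxide from arginine and leaves citrulline. Argininosuccinate synthase (Ass1) and argininosuccinate lyase (Asl) turn that citrulline back into arginine, while arginase takes arginine away as ornithine and urea. Nitric oxide activates soluble guanylate cyclase, the cGMP it makes activates the kinases encoded by Prkg1 and Prkg2, and the enzyme encoded by Adh5 reduces S-nitrosoglutathione, a store of nitric oxide on glutathione. In the brain the neuronal synthase, Nos1, is found in scattered neurons and is tied to calcium entry.

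Values are the authors' RMA expression values on the log2 scale, and a difference is globin-labelled minus empty vector, with limma's standard error (SE) from the fit over all probe sets. The 10 genes were chosen by their differences in this same comparison, so their differences are given as a description, with no p-value. A probe set is called changed at a limma adjusted p under 0.05. Of the 11 probe sets, 6 were called, each of them higher in the globin-labelled arrays, and they belong to Nos1, Ass1, Prkg1, Prkg2 and Adh5. Over all tested probe sets 39.5% were called, 18.3% higher and 21.2% lower, and nothing is read from the members' count because this comparison chose them. The groups did not overlap for 8 of the 11 probe sets, against 43.5% of all. The median difference was 0.43 over the 11 probe sets and 0.01 over all tested probe sets. Regardless of sign, the median size was 0.43 and 0.12. For the same reason nothing is read from the overlap or from these medians.

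The arrays of the labelled overexpression were first checked for globin. Of 5 adult alpha-globin probe sets 3 were called higher, by 5.16 to 7.15 on the log2 scale, whereas of 3 adult beta-globin probe sets 1, of Hbb-b2, was called higher, by 0.34 ± 0.07 (limma adjusted p = 0.00558), and the others differed by 0.12 and -0.05. On these probe sets the beta chain thus showed no rise of the size seen for the alpha chain, and these 4 arrays are called globin-labelled wherever a direction is given. The remaining alpha probe sets differed by -0.03 and 0.03, so a probe set of a raised chain need not show the rise. Whether the beta probe sets miss a rise was not tested. Array medians lay between 8.90 and 8.94, and arrays correlated at 0.9985 to 0.9990 within groups and at 0.9903 to 0.9917 across them. Of the 5 dopaminergic markers measured, Th, tyrosine hydroxylase, fell by 0.70 ± 0.05 and Ddc, the next enzyme, fell by 0.22 ± 0.05 (limma adjusted p = 1.14e-05 and 0.00866), while Nr4a2 (-0.13 ± 0.09), Slc6a3 (0.04 ± 0.07) and Pitx3 (0.06 ± 0.07) were not called. The summed linear signal of the 5, in which Th is the brightest, lay between 4764 and 5338 in the empty vector arrays and between 3498 and 3665 in the globin-labelled arrays. The sums for other cell types lay close together in the 2 groups for 6 astrocyte markers (588 to 608 against 571 to 618), 6 microglial markers (482 to 520 against 501 to 576), 6 fibroblast markers (535 to 552 against 522 to 569), 5 endothelial markers (552 to 558 against 502 to 563) and 5 erythroid markers (1070 to 1153 against 1111 to 1241). The sum of 4 oligodendrocyte markers was 437 to 473 against 305 to 333, and its brightest member, Mbp, fell by 0.70 ± 0.06 on its brightest probe set (limma adjusted p = 1.69e-05), while Mobp (0.13 ± 0.05, limma adjusted p = 0.0519), Mog (0.03 ± 0.07) and Olig2 (-0.07 ± 0.05) were not called. The brightest markers of the other lists were Gfap (-0.04 ± 0.06), Csf1r (0.10 ± 0.08), Dcn (-0.02 ± 0.06), Kdr, which fell by 0.27 ± 0.08 (limma adjusted p = 0.0247), and Epor (0.14 ± 0.05, limma adjusted p = 0.0670). In the erythroid list Slc4a1 rose by 0.29 ± 0.08 (limma adjusted p = 0.0210). Mog, Olig2, Itgam, Col3a1 and Lum lay below the 10th percentile of every array. The part of any of these in the results below was not tested, and in such bulk RNA more cells of a kind cannot be told apart from more RNA per cell.

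Promoter sequences are shown for the members that differed most and for which the RefSeq table (GRCm38.p6) holds a start site, namely Nos1, Ass1 and Prkg1, the last with 2 start sites. Asl, Arg2 and Prkg2 have no entry in that table. Each runs 5′ to 3′ from 250 bases before to 50 bases after the start, and capitals mark every match, on either strand, to the motifs searched.
Nos1, chr5:117866589-117866888, plus strand: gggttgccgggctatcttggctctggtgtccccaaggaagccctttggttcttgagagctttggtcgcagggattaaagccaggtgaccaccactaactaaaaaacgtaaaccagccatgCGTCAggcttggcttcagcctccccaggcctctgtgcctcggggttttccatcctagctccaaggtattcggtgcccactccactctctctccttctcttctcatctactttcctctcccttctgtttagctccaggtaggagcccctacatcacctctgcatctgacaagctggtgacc
Ass1, chr2:31470020-31470319, plus strand: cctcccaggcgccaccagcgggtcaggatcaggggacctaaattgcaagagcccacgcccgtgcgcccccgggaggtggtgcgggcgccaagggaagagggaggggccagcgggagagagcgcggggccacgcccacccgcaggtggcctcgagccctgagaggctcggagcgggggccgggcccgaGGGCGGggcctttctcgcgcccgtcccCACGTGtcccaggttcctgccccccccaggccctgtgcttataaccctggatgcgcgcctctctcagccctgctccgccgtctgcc
Prkg1, first start, chr19:31764984-31765283, minus strand: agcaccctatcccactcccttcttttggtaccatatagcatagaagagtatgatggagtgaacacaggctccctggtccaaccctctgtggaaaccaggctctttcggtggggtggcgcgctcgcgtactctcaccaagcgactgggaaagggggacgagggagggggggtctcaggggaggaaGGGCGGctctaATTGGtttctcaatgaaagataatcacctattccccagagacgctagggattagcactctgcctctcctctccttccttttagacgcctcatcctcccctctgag
Prkg1, second start, chr19:31664321-31664620, minus strand: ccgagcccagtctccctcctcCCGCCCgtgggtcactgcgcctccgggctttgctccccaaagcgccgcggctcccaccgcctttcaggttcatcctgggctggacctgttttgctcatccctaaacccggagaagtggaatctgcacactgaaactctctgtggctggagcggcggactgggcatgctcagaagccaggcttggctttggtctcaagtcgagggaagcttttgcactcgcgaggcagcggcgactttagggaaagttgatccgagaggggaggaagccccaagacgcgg

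The motifs were the cAMP response element TGACGTCA, its short core TGACG, the E-box CACGTG, the hypoxia element core ACGTG, the GC box GGGCGG, the CCAAT box CCAAT, the TATA box TATAAA and the ATF4 composite element TGATGNAAT. Some of these overlap, since the short core lies within the full cAMP element and the hypoxia core lies within the E-box. The Ass1 window holds an E-box at its bases 215 to 220, with the hypoxia core inside it, and a GC box at bases 188 to 193. Among all 32851 promoter windows of this length, 7.15% hold the E-box, 19.6% the hypoxia core and 35.7% the GC box. The Nos1 window holds 1 motif, the short core of the cAMP element at bases 121 to 125, which 20.8% of all windows hold. The first Prkg1 window has a GC box and a CCAAT box, and the second has a GC box. No motif is common to the windows of all 3 genes. Of the windows printed, that of Ass1 is the richest in G and C, at 74% with 27 CpG pairs, and that of Nos1 has 54.7% with 6, where the median window has 52.7% and 7. Adh5 has 2 windows in the table, which differ in the same way: one has 47% G and C and 3 CpG pairs, the other 65% and 26 with 3 GC boxes. A match is a description of letters and not a bound site.

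**Figure D1:**
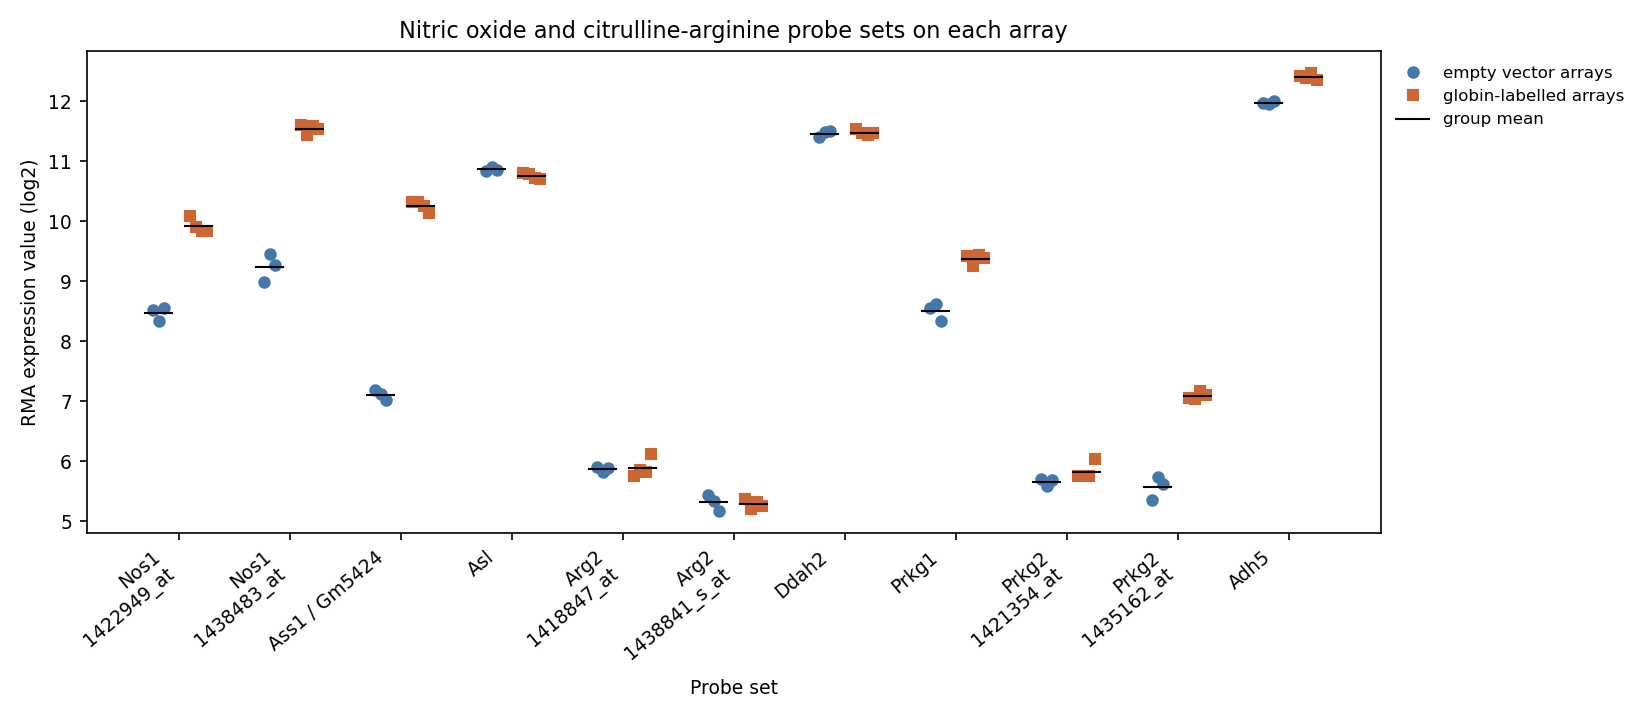
RMA values (log2) of the 11 probe sets on each array, with circles for the 3 empty vector arrays, squares for the 4 globin-labelled arrays and lines for group means. The groups stand apart for both Nos1 probe sets, Ass1, Prkg1, Adh5 and 1 Prkg2 probe set, while those of Arg2 and Ddah2 lie on each other.

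Nos1, the neuronal nitric oxide synthase, was higher on both of its probe sets. On 1438483_at its empty vector values were 8.98, 9.45 and 9.26 and its globin-labelled values 11.61, 11.43, 11.59 and 11.54. The groups were separated by 1.98 between the highest empty vector and the lowest globin-labelled array, where the whole range within the empty vector group was 0.46. The difference was 2.31 ± 0.10 (SE, n = 4 and 3), a fold of 4.96 with a 95% interval from 4.26 to 5.77. On 1422949_at the empty vector values were 8.52, 8.34 and 8.55 and the globin-labelled values 10.08, 9.91, 9.83 and 9.85. That difference was smaller, 1.45 ± 0.07 (SE), a fold of 2.73 with an interval from 2.43 to 3.06. The direction was shared by both probe sets and the size was not, as the difference on 1422949_at minus that on 1438483_at was -0.86. Within an array, the value of 1422949_at minus that of 1438483_at was -0.76 ± 0.33 (SD, n = 3) in the empty vector arrays and -1.62 ± 0.12 (SD, n = 4) in the globin-labelled arrays.

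Neither of the other synthases was called. Nos2, the inducible synthase, differed by -0.05 ± 0.07 and Nos3, the endothelial synthase, by -0.10 ± 0.05 (limma adjusted p = 0.592 and 0.156). Of the 8 measured genes of the list of synthases and partners that are not members, 1 rose and 1 fell, where 20.6% of all 12393 genes rose and 20.1% fell with 1 probe set per gene. The one that rose was Dlg4, the postsynaptic scaffold PSD-95 that binds Nos1, by 0.40 ± 0.05 (limma adjusted p = 2.50e-04), with 1 of its other 2 probe sets also called higher. Nosip, a partner protein of nitric oxide synthases, fell by 0.32 ± 0.05 (limma adjusted p = 5.96e-04), though its other probe set was not called (-0.11 ± 0.05).

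Ass1, the enzyme that joins citrulline to aspartate and limits the remaking of arginine, had the largest difference of the set. Its probe set read 7.18, 7.13 and 7.02 in the empty vector arrays and 10.32, 10.32, 10.26 and 10.14 in the globin-labelled arrays. The groups were 2.96 apart at their nearest, with a range of 0.16 within the first group and 0.18 within the second. The difference was 3.15 ± 0.06 (SE), or 8.87-fold with a 95% interval from 8.10 to 9.72. By size it held rank 9 among all 22626 probe sets, and rank 8 among the rises, behind the 3 alpha-globin probe sets among others. The probe set is annotated to both Ass1 and Gm5424, a transcribed pseudogene on another chromosome, so signal of the one cannot be told apart from signal of the other.

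Asl, which splits argininosuccinate into arginine and fumarate in the next step, did not follow Ass1. Its values were 10.83, 10.90 and 10.86 in the empty vector arrays and 10.80, 10.78, 10.72 and 10.70 in the globin-labelled arrays. All 4 of the latter lay below the former, by a margin of 0.03, and the probe set was not called. The difference was -0.11 ± 0.04 (SE), with a 95% interval from -0.21 to -0.02. The probe sets of the 2 steps of the cycle thus differed by 3.15 and -0.11, the first of them shared with Gm5424.

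Arg2, the mitochondrial arginase that competes for arginine, was dim and showed no separation. Its brighter probe set read 5.91, 5.83 and 5.90 against 5.76, 5.86, 5.83 and 6.12, a difference of 0.01 ± 0.08 (SE). Globin-labelled array 4 was the highest and array 1 the lowest of all 7, so the groups overlapped. Its other probe set read 5.44, 5.34 and 5.17 against 5.38, 5.21, 5.32 and 5.25, with 6 of the 7 arrays below the 10th percentile of their own array (5.36 to 5.45), a difference of -0.03 ± 0.07. Arg1, the liver arginase, lay below the 10th percentile on all 7 arrays and differed by -0.05 ± 0.06 (limma adjusted p = 0.527).

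Ddah2 belongs to a family named for the breakdown of the methylated arginines that inhibit nitric oxide synthase. Ddah1 of the same family has no probe set here, and the breakdown itself was not measured. Ddah2 read 11.40, 11.48 and 11.50 in the empty vector arrays and 11.54, 11.46, 11.43 and 11.47 in the globin-labelled arrays. The groups overlapped, with a difference of 0.02 ± 0.04 (SE) and a 95% interval from -0.08 to 0.12. Of 4 measured genes for making methylarginines, Prmt6, an arginine methyltransferase, fell by 0.57 ± 0.04 (limma adjusted p = 6.02e-06), and Prmt1, the main enzyme of asymmetric dimethylation, rose by 0.17 ± 0.05 with overlapping groups (limma adjusted p = 0.0314). The call of Prmt1 was lost without empty vector array 1 or 2 or globin-labelled array 1, 2 or 3, with adjusted p of 0.0709 to 0.108 in those fits.

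**Figure D2:**
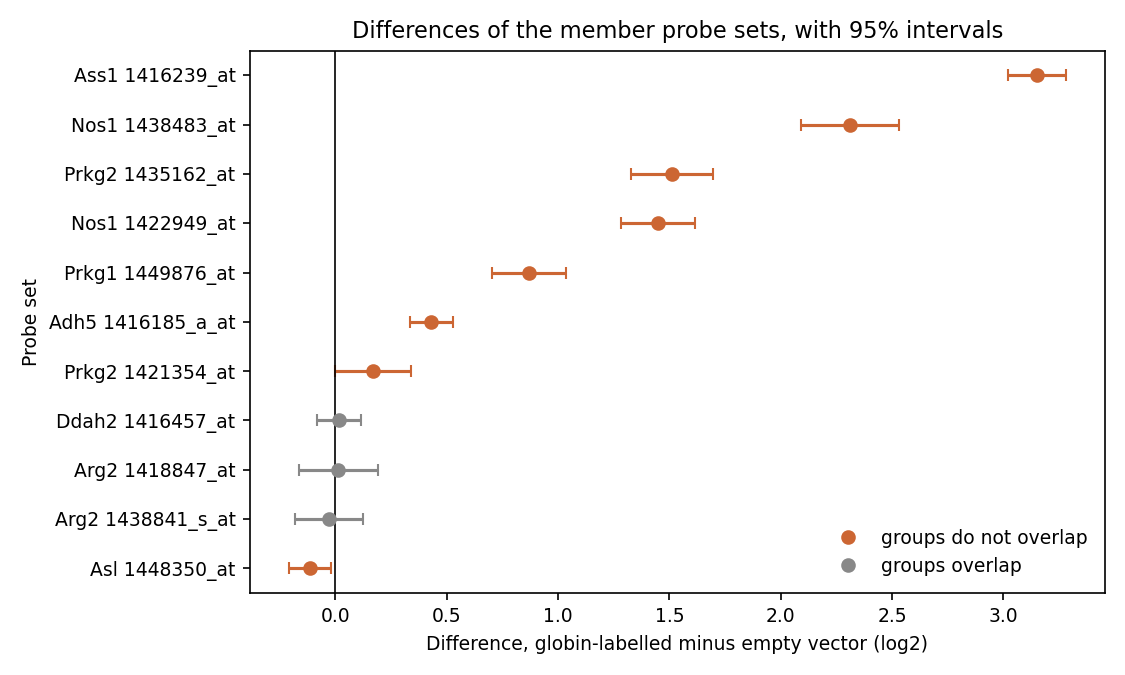
Differences between the groups on the log2 scale for the 11 probe sets, ordered by size, with 95% confidence intervals from limma. Ass1 (3.15) and both Nos1 probe sets (2.31 and 1.45) lie far above 0, the Prkg2 probe sets lie apart from each other (1.51 and 0.17), and Ddah2 and Arg2 lie at 0.

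Prkg1, the soluble cGMP-dependent kinase of smooth muscle and some neurons, was higher in the globin-labelled arrays. It read 8.55, 8.63 and 8.34 in the empty vector arrays and 9.42, 9.25, 9.43 and 9.39 in the globin-labelled arrays. The nearest arrays of the 2 groups were 0.62 apart. The difference was 0.87 ± 0.07 (SE), or 1.83-fold with a 95% interval from 1.63 to 2.05.

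Prkg2, the membrane-bound kinase of the same pair, differed between its probe sets. On 1435162_at the empty vector values were 5.36, 5.75 and 5.62 and the globin-labelled values 7.05, 7.04, 7.17 and 7.10. The difference there was 1.51 ± 0.08 (SE), 2.85-fold with an interval from 2.51 to 3.24, from a level near the arrays' 10th percentile, where 1 empty vector array lay below it. On 1421354_at the values were 5.71, 5.58 and 5.69 against 5.75, 5.76, 5.76 and 6.04, a difference of 0.17 ± 0.08 that was not called. Globin-labelled array 4 stood above the rest there, and the other 3, at 5.75 to 5.76, lay just above the highest empty vector value. The difference on 1421354_at minus that on 1435162_at was -1.34, and neither probe set is preferred here.

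Adh5, the S-nitrosoglutathione reductase, was bright and higher by a small amount with little spread. It read 11.98, 11.95 and 12.00 in the empty vector arrays and 12.42, 12.39, 12.48 and 12.35 in the globin-labelled arrays. The difference was 0.43 ± 0.04 (SE), or 1.35-fold with a 95% interval from 1.26 to 1.44. The groups were 0.35 apart at their nearest.

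Between the synthase and the kinases stands soluble guanylate cyclase, the receptor for nitric oxide. Gucy1a1, its alpha-1 subunit, fell by 0.27 ± 0.05 (limma adjusted p = 0.00216), from 8.49, 8.41 and 8.46 to 8.19, 8.27, 8.18 and 8.09. The other Gucy1a1 probe set fell by 0.28 ± 0.06. Gucy1b1, the beta-1 subunit, differed by -0.06 ± 0.04 (limma adjusted p = 0.287), with -0.08 on its other probe set. Gucy1a2, another alpha subunit, was not among the measured genes. Of 10 measured genes of cGMP making and breakdown, 3 rose and 1 fell, with a median of 0.00. Those that rose were Pde2a, a cGMP-stimulated phosphodiesterase, by 0.73 ± 0.05 (limma adjusted p = 5.44e-06), Npr2, the receptor guanylate cyclase for C-type natriuretic peptide, by 0.49 ± 0.04 (limma adjusted p = 2.92e-05), and Pde9a, a cGMP-specific phosphodiesterase, by 0.20 ± 0.07 (limma adjusted p = 0.0375). The Pde9a call was lost without empty vector array 2 or 3 or globin-labelled array 2 or 3, with adjusted p of 0.0796 to 0.130. Of 3 measured partners or substrates of the kinases, Vasp, an actin regulator that these kinases phosphorylate, fell by 0.15 ± 0.05 (limma adjusted p = 0.0304), a call lost without any 1 of the 3 empty vector arrays or without globin-labelled array 3 or 4 (adjusted p of 0.0514 to 0.0811), and the other 2 were not called.

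Of 8 measured genes that supply arginine, 3 rose and 1 fell, with a median of 0.01. Slc3a2, the shared heavy chain of several amino acid transporters, rose by 0.26 ± 0.04, Nags, which makes the activator of the urea cycle, by 0.23 ± 0.05, and Cps1, the first enzyme of that cycle, by 0.19 ± 0.05 (limma adjusted p = 6.02e-04, 0.00453 and 0.00788). Cps1 was dim, at 6.36 to 6.66, and the filter at the 25th percentile of means left it out. With the replicate number as a block and without globin-labelled array 4, Nags and Cps1 lost their calls (limma adjusted p = 0.0513 and 0.0757). The arginine carrier Slc7a3 fell by 0.24 ± 0.05 (limma adjusted p = 0.00242), and Slc7a1, the main carrier of dividing cells, differed by -0.29 ± 0.13 (limma adjusted p = 0.118) and by -0.16 without globin-labelled array 4, which read 8.24 where the other 3 read 8.64 to 8.84.

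Of 14 measured genes that use arginine and its products, 6 rose and 1 fell, with a median of 0.12. Aldh18a1, the first enzyme of proline and ornithine synthesis from glutamate, rose by 0.56 ± 0.04 (limma adjusted p = 1.12e-05), and its 4 other probe sets were all called higher. Prodh, which breaks proline down, rose by 0.46 ± 0.06 (limma adjusted p = 2.50e-04). Odc1, the rate-limiting enzyme of polyamine synthesis, rose by 0.38 ± 0.05 (limma adjusted p = 1.82e-04), with both other probe sets higher, while Sat1, which acetylates polyamines for export, fell by 0.40 ± 0.05 (limma adjusted p = 1.75e-04).

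Of the 5 measured genes of tetrahydrobiopterin, the cofactor that nitric oxide synthase shares with tyrosine hydroxylase, 1 rose and 1 fell. Gch1 of this list was not called on its brightest probe set (0.05 ± 0.07). On its other probe set it rose by 0.14 ± 0.04 (limma adjusted p = 0.0206). Pcbd1, which helps to recycle the cofactor, rose by 0.38 ± 0.05 (limma adjusted p = 2.45e-04), and Qdpr, which completes the recycling, fell by 0.34 ± 0.05 (limma adjusted p = 3.28e-04) and by 0.43 ± 0.04 on its other probe set. Of 6 genes that handle nitrosothiols and nitric oxide besides Adh5, 3 fell and the other 3 were not called, with a median of -0.14. Cygb, cytoglobin, which can consume nitric oxide, fell by 0.78 ± 0.07 (limma adjusted p = 1.99e-05), from 8.59, 8.77 and 8.84 to 7.99, 7.88, 8.03 and 7.91. Akr1a1, a reductase of S-nitroso-coenzyme A, fell by 0.33 ± 0.04 (limma adjusted p = 1.67e-04), with its 3 other probe sets also lower, and Txnrd1, thioredoxin reductase, fell by 0.14 ± 0.04 (limma adjusted p = 0.0168), by less than on its other probe sets (-0.47 and -0.36). The Txnrd1 call on the first probe set was lost without empty vector array 2 (adjusted p = 0.0587). Over the 8 lists together, 15 of the 58 measured genes that are not members rose and 10 fell, where 20.6% and 20.1% of all genes did, with a median of 0.00 against 0.02 over all genes.

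**Figure D3:**
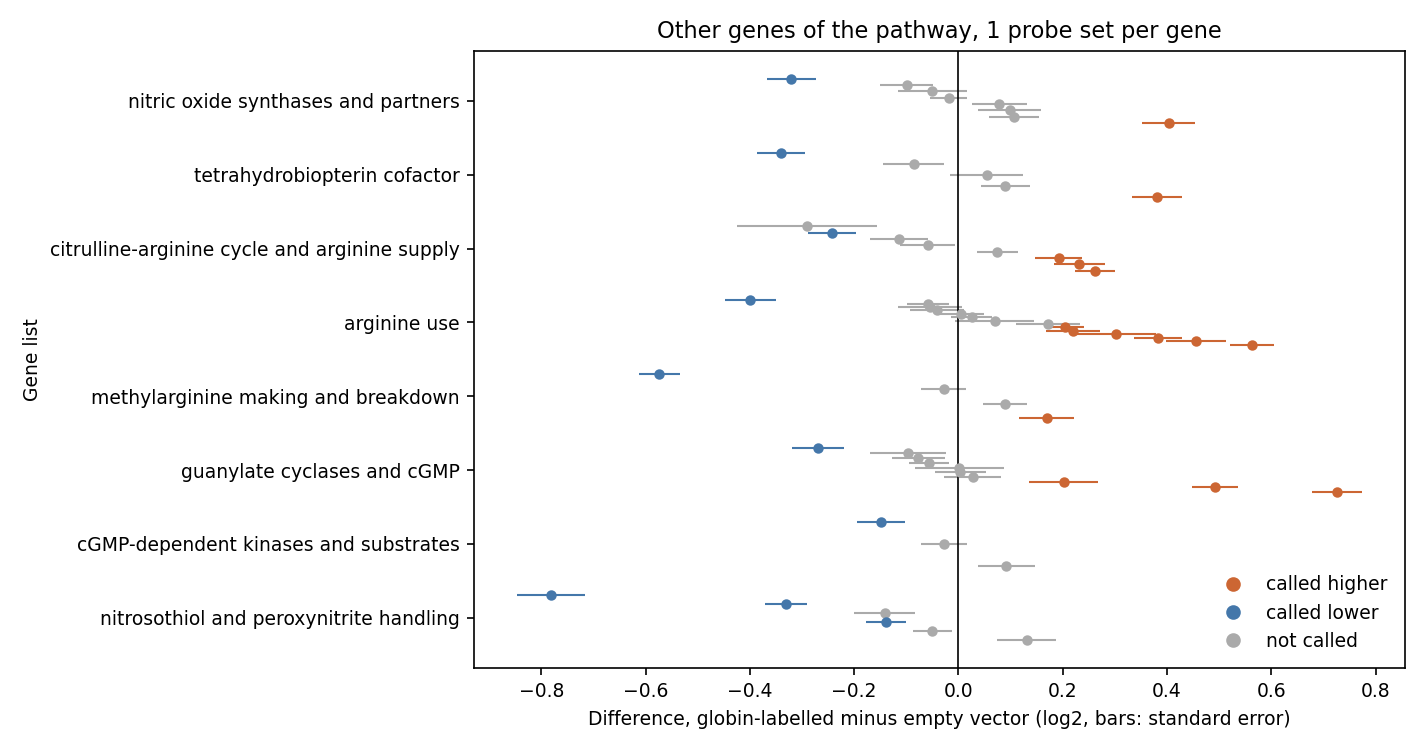
Differences between the groups (log2, with standard errors) of the 58 measured pathway genes that are not members, by list, with 1 probe set per gene and colours for those called higher, lower or not called by limma. Both directions occur in most lists, and every value lies between -0.78 and 0.73.

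The genes that lie beside each member on its chromosome, in the gene order of the RefSeq table of GRCm38.p6, were looked at for the same difference. Beside Ass1 on chromosome 2, of the 5 measured genes on either side 1 was higher and 1 lower, with a median of 0.07 and no value above 0.33. Beside Nos1 on chromosome 5 the median was 0.11 (0.06 with 10 genes on either side), 4 of 10 were higher and 2 lower, and the highest was Tesc, a calcium-binding protein, at 0.64 ± 0.05. Beside Prkg2, also on chromosome 5, the median was 0.11 and no value exceeded 0.45. Beside Prkg1 on chromosome 19, the neighbour Dkk1, a secreted Wnt antagonist, rose by 2.33 ± 0.04 (limma adjusted p = 2.03e-09), and Asah2, a neutral ceramidase, rose by 0.81 ± 0.06, while the median was 0.13. Beside Adh5 on chromosome 3, 6 of 10 were higher and 1 lower, with a median of 0.30, below the 0.43 of Adh5 itself. Tspan5, a tetraspanin, rose there by 1.15 ± 0.07, while Pdha2 differed by -0.74 ± 0.08. With 10 genes on either side the median was 0.08, and Dapp1 differed by -0.83 ± 0.07. Beside Asl, on chromosome 5, 5 of 10 were lower and 1 higher, with a median of -0.16 (-0.03 with 10 genes on either side). Gusb, the lysosomal glucuronidase, fell there by 0.65 ± 0.04. With 10 genes on either side of Asl, Adgrd1 and Mmp17 rose by 0.90 ± 0.11 and 0.86 ± 0.05. The medians beside Arg2 and Ddah2 were -0.07 and 0.01. With 10 genes on either side, Zfp36l1 beside Arg2 rose by 1.33 ± 0.12 and Hspa1b beside Ddah2 by 1.43 ± 0.09. Over all genes 40.7% were called and the median was 0.02. The part of these neighbourhoods in the members' differences was not tested.

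**Figure D4:**
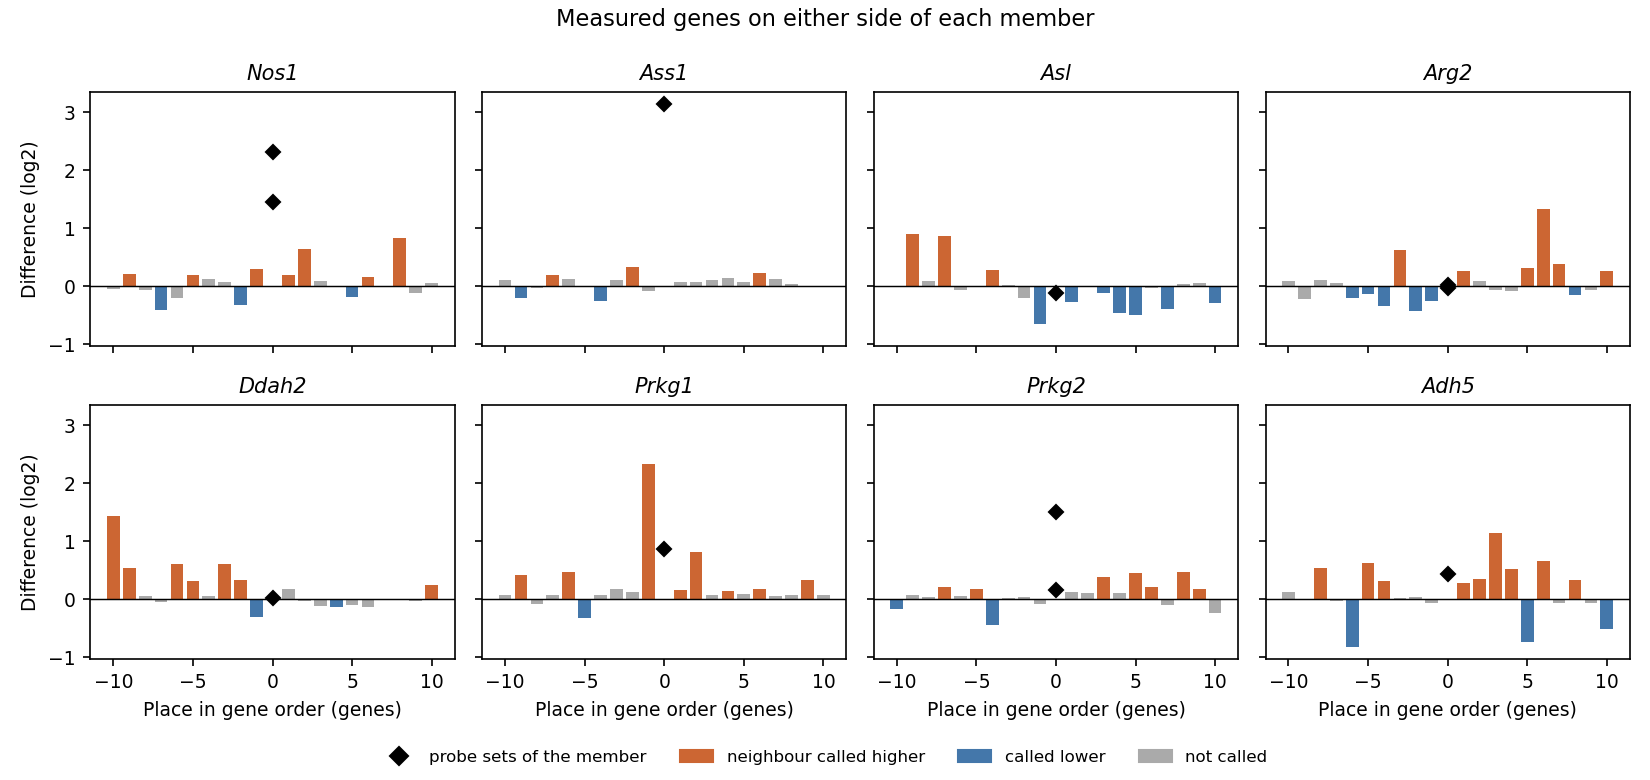
Differences (log2) of the 10 measured genes on either side of each member in chromosome order, as bars coloured by limma's call, with diamonds at place 0 for the member's own probe sets. The bar of Dkk1 beside Prkg1 is the tallest (2.33). Bars of Hspa1b beside Ddah2 (1.43) and Zfp36l1 beside Arg2 (1.33) and several bars beside Adh5 are also raised. Bars of both directions occur in every panel. The heights of the diamonds chose the members.

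The genes whose values over the 7 arrays lay nearest to those of Nos1, each taken relative to its own empty vector mean, were found by Euclidean distance. For 1438483_at they were Ccnd2, a D-type cyclin (distance 0.27), Deptor, an inhibitor of mTOR (0.32), Dkk1 (0.32), Npnt, a matrix protein (0.41), and Sparc, a matrix glycoprotein (0.46), with differences of 2.26 to 2.33. For 1422949_at they were Cdk18, a cyclin-dependent kinase (0.15), Egr1, an immediate early transcription factor (0.25), Reep6 (0.27), Pygl, liver glycogen phosphorylase (0.29), and Nfix, a transcription factor (0.30), with differences of 1.39 to 1.47. The 5 nearest genes of the one probe set were not among the 5 of the other. Such likeness over 7 arrays is set mainly by the size of the group difference.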

How the data were processed

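Total RNA of MN9D cells was labelled with biotin after one cycle of amplification and hybridised to mouse 430A 2.0 arrays, per the labels. Values on the log2 scale were deposited by the authors after RMA, which the submitters' processing notes name; its software and version are not stated in the labels. RMA makes array distributions alike and so hides any shift common to most transcripts. All 7 columns were used as they stood, and scanner files were not used here. After 64 control probe sets were set aside, 22626 were fitted with limma 3.58.1 in R 4.3.3 (lmFit and eBayes with the group alone in the model, two-sided tests, Benjamini-Hochberg adjustment over all probe sets), with 5 residual degrees of freedom. The script was tested on simulated data. Arrays carry no read depth, and their number limits the precision.

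Members and lists were chosen with earlier results of these data known. Named were all member probe sets, up to 4 called genes of each list by smallest p, Nos2, Nos3, Arg1, Gucy1a1, Gucy1b1 and Slc7a1, the 5 genes nearest to each Nos1 probe set, the brightest marker of each cell type and the globin probe sets. Neighbours with large values (Tesc, Dkk1, Asah2, Tspan5, Pdha2, Dapp1, Gusb, Adgrd1, Mmp17, Hspa1b, Zfp36l1), Gch1 and Slc4a1 were named after their values were seen. So were the other dopaminergic and oligodendrocyte markers and the markers below the 10th percentile. In lists and neighbourhoods a gene was represented by the probe set with 1 symbol and the highest mean. Symbols were matched through Entrez identifiers to RefSeq (GRCm38.p6), and 7 of the 10 members had promoter windows. Protein sequences were not used here. Alternatives were another array scaling (quantile or median), eBayes with trend and robust, a filter on dim probe sets, the replicate number as a block, an unmoderated test, leaving out arrays, any probe set per gene, and more neighbours.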

Additional observations from a re-analysis of the deposited data

Results flagged for a closer look

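In 3 of the 48 probe sets checked, 1 of the 4 globin-labelled arrays stood apart from the other 3 by Dixon's criterion, which chance meets in about 1 of 20 groups, so that a count of this size is near what chance gives. Globin-labelled array 4 read 6.04 on 1421354_at of Prkg2, where the others read 5.75 to 5.76, and this dim probe set is the one that was not called. Array 3 read 4.40 for Arg1, where the others read 4.62 to 4.65. Array 1 read 8.34 for Pde2a, where the others read 8.26 to 8.27, all of them above the empty vector arrays.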

How the results depend on the processing

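The 6 called member probe sets were called under each of the 11 alternatives run on them, 2 array scalings, the replicate block, each array left out and 2 arrays left out together, and all kept their direction. Over these the difference ranged from 3.11 to 3.22 for Ass1, from 2.19 to 2.42 for 1438483_at of Nos1, whose other probe set stayed at 1.38 or more, from 1.40 to 1.60 for 1435162_at of Prkg2, from 0.78 to 0.93 for Prkg1 and from 0.41 to 0.45 for Adh5. The small differences of Arg2 and Ddah2 took either sign. Since this comparison on the same arrays chose the members, their kept calls are no independent support for them. The count of called probe sets, 8931 in the fit as reported, ranged from 6337 to 9224 over the alternatives, and from 7803 to 8271 with 1 array left out. The count of other pathway genes called, 25 as reported, ranged from 19 to 27, and from 21 to 25 with 1 array left out. With the replicate number as a block and globin-labelled array 4 left out, 6337 probe sets and 19 pathway genes were called, and Cps1 (adjusted p = 0.0757), Nags (0.0513), Prmt1 (0.0545), Pde9a (0.0958), Vasp (0.187) and Txnrd1 (0.132) lost their calls. Same-numbered arrays did not deviate together (correlations of -0.36, -0.30 and -0.14, against -0.23 to 0.28 for other pairs). Deviations within a group are not independent of each other, so these correlations cannot settle whether the numbers mark a pairing. The cause of the lost calls was not tested. Pde9a was not called after quantile normalization (adjusted p = 0.0656), nor were Prmt1 (0.0736), Pde9a (0.109) and Vasp (0.0502) in the unmoderated test. Vasp was also not called without globin-labelled array 4 and empty vector array 1 together (adjusted p = 0.0640). Signal near the 10th percentile limits the values of Arg2, Arg1 and Prkg2.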
